A study of Mus musculus with 12 samples.

Results

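The miR-669 microRNAs (miRNAs) are a group of mouse miRNAs cut from hairpins that lie together in an intron of Sfmbt2. They were taken here as every entry of the deposited count files whose name starts with mmu-miR-669 followed by a letter, whatever its arm or copy suffix, which gave 30 of 1978 entries. Of these 30, 15 had 10 or more counts over all libraries and are described singly, 2 (miR-669o-3p and miR-669g) had 6 and 3 counts, and 13 had no count.

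Small RNA of 2 mouse stem cell types was sequenced. One was the E14 embryonic stem cell line (ESC). The other was trophoblast stem cells (TSC), which give rise to placental cells and whose line the labels do not name. Each cell type was sampled as control cells, labelled WT, and as cells put into a paused state by inhibition of mTOR, the kinase that couples nutrients to growth. The labels give neither the inhibitor nor its dose or duration, and no allele or transgene is named for any group. Of 3 samples per group the third had the same value as the second at all 1978 entries, so the pair was counted as 1 library, called replicate 2 here. Each of the 4 groups then has n = 2. Nothing in the labels says that libraries came from separate cultures, so p-values measure the spread between these libraries, which may be technical.

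Library totals ran from 13607 to 115492 counts, at most 0.77% of the 15 M reads aimed for. A count of 0 allows up to 3 counts, which is 37.4 to 192 CPM over the 8 libraries. CPM is the count divided by the TMM-scaled size of its library, so that libraries of unequal depth can be compared. The labels mention no molecular identifiers. Intervals and floors therefore cover counting error only. Trophoblast miRNAs (miR-322, miR-503, miR-351, miR-542 and miR-450b, 10 entries) held 5.75% to 11.3% of counts in the TSC libraries and 0.0986% to 0.158% in the ESC libraries. The miR-290 and miR-302 clusters of the early embryo together held 62.4% to 65.2% in ESC and 45.7% to 56.0% in TSC, nearly all of it from the miR-290 cluster.

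A miRNA hairpin is cut from a longer transcript, and either of its strands, the 5p and the 3p arm, can be kept as the mature miRNA that pairs with messenger RNAs through its seed, bases 2 to 8. Sfmbt2 encodes a Polycomb group protein. It is imprinted, read from the paternal copy in the early embryo and in trophoblast, and its mouse gene holds one of the largest known blocks of miRNA hairpins, made of repeats of miR-669 and of the related miR-297, miR-466 and miR-467. Loss of that block is known to impair the growth of the mouse placenta. Outside the placenta, miR-669a has been reported to act on MyoD in muscle progenitors, and miR-669c has been reported to rise in the ageing liver.

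In the GENCODE M21 annotation of GRCm38, the build named in the submitters' processing notes, 29 of the 30 Mir669 hairpins lay in a single intron of Sfmbt2 (chromosome 2, 10370510 to 10595253, plus strand). That intron runs from 10461473 to 10523944, a length of 62472 bases, and none of the 29 hairpins overlapped an exon of the gene. All 29 were on the strand of the host. They spanned 51.1 kb, from Mir669f at 10467229 to Mir669h, which ends at 10518279. Of the 51 hairpins of the miR-297, miR-466 and miR-467 groups, 42 lay in the same intron. Mir669n, on chromosome 3 (115979902 to 115979955), was the 1 hairpin of the name outside Sfmbt2.

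Of the 7 annotated Sfmbt2 transcripts, 2 run through the intron, and the first start among these is at 10372436. The 250 bases before that start precede the first start of the host transcripts that span the 29 hairpins. They are shown (GRCm38.p6, chr2:10372186-10372435, plus strand, RefSeq) with the GC box GGGCGG in capitals.
Sfmbt2 long form: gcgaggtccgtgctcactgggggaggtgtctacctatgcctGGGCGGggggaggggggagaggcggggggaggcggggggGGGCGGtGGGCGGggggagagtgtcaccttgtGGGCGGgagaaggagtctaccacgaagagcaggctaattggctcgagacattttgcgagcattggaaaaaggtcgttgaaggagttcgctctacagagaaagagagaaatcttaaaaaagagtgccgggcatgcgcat
The stretch was 60.8% G and C (median of 32851 RefSeq promoter stretches of that length, 52.4%) and held 15 CG dinucleotides (median 6). It held 4 matches to GGGCGG, searched on both strands. At least 1 match was found in 32.7% of the 32851 stretches, and 4 or more in 4.09%. The letters CACGTG, an E-box, were searched on both strands too and were not in this window. They were found in 6.02% of the stretches.

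The RefSeq miRNA table held a mature sequence for 1 of the 30 entries, miR-669n (GRCm38.p6, chr3:115979905-115979924, plus strand), the member outside Sfmbt2, which had 0 counts. It is shown for the UG repeats in it, with its seed in capitals.
miR-669n: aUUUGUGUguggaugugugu

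Counts fell on entries that can be tied to 1 hairpin by name. Letters a, d, m and p have several hairpins in the annotation (12 for a, 2 each for d, m and p). The 8 entries of those letters that are not tied to a single copy, among them miR-669a-5p, miR-669a-3p and miR-669p-5p, had 0 counts in every library. Of the 2 entries named for 1 copy, miR-669a-3-3p had 359 counts and miR-669d-2-3p had 0. Of the 20 entries whose letter has 1 hairpin, 16 had counts and 4 had none (miR-669b-5p, miR-669j, miR-669k-5p and miR-669n). The labels do not say how reads that match several loci were placed, so a level of 0 for the repeated hairpins cannot be read as absence. The sum below is therefore a sum over the uniquely named hairpins.

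**Figure D1:**
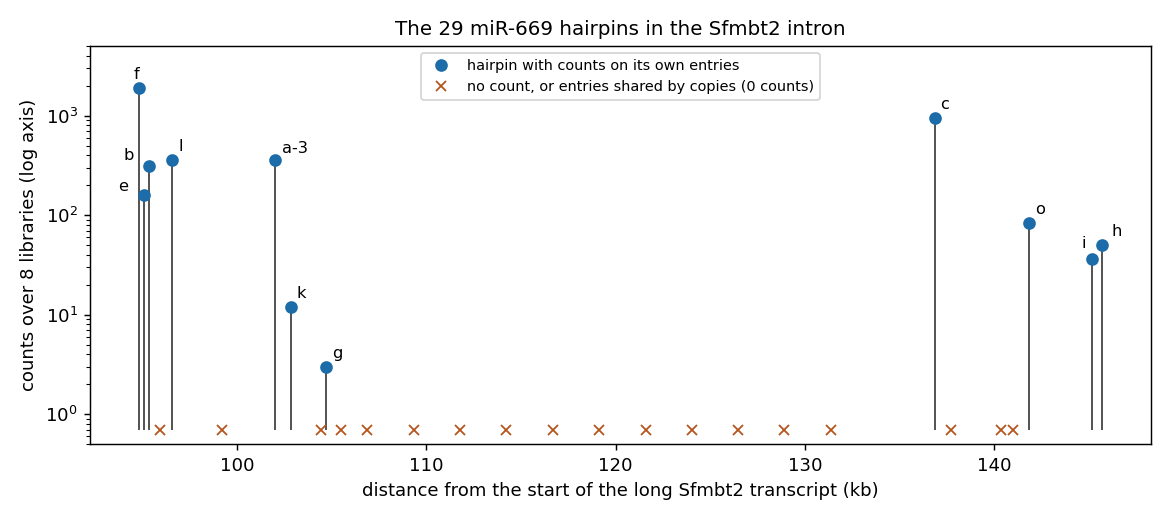
Counts over the 8 libraries on the entries of each Sfmbt2 intron hairpin (log axis) against its distance in kb from the start of the long Sfmbt2 transcript. Letters name the hairpins with counts, which lie near the start of the array (f, e, b, l, a-3, k, g) or near its end (c, o, i, h), and crosses mark hairpins with 0 counts or with entries shared by copies.

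Counts were on entries named for hairpins at both ends of the array. Hairpins are matched to entries by name, and how reads that match several loci were placed is not known. The counts below therefore need not all come from the hairpin named. At its start Mir669f (10467229 to 10467349) had 1879 counts, Mir669e 159, Mir669b 313 and Mir669l 356. At the far end Mir669c (10509296 to 10509404) had 940 counts, Mir669o 83, Mir669i 36 and Mir669h 50. Between Mir669j and Mir669c stand 11 hairpins in a row of letters a and p, from 10479315 to 10503877, and none of these has an entry of its own. Uncounted hairpins of letters d, j and m, and copies of letter a, also stand among the counted ones at both ends, as the map of counts along the intron shows.

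Together the miR-669 entries held 4190 counts, and 3968 of these (94.7%) were on the 9 entries that passed the filter for testing, 10 counts at the median depth in at least 2 libraries, or about 369 CPM before scaling. In control ESC the miR-669 entries held 1.04% (200 of 19266) and 1.05% (143 of 13607) of counts. In paused ESC they held 0.0530% (39 of 73574) and 0.0518% (32 of 61749). Control TSC had 2.04% (2360 of 115492) and 2.01% (376 of 18725). Paused TSC had 1.74% (412 of 23652) and 2.06% (628 of 30487). The exact 95% binomial intervals (Clopper-Pearson) were 0.886% to 1.24% for the second control ESC library and 0.0377% to 0.0725% for the first paused ESC library.

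**Figure D2:**
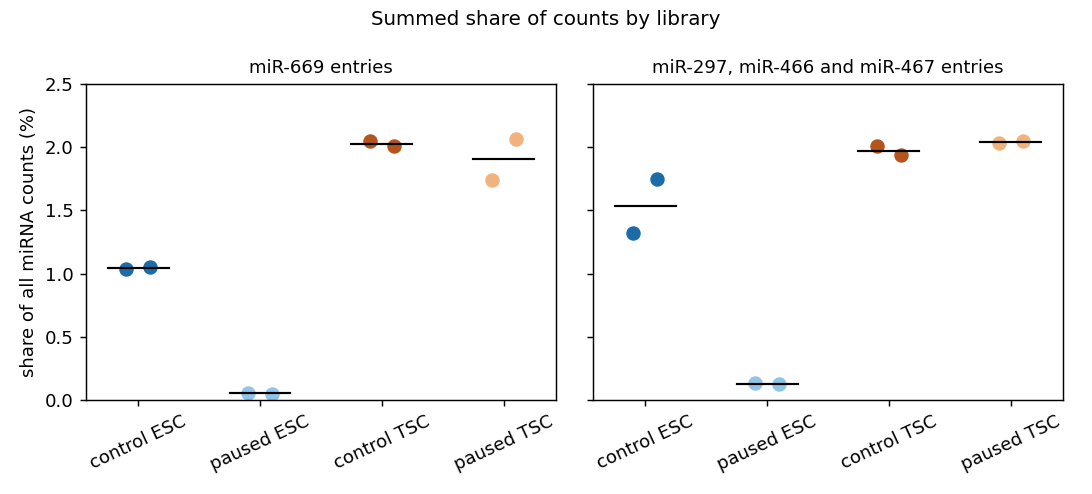
Share of all miRNA counts (%) on the miR-669 entries (left) and on the miR-297, miR-466 and miR-467 entries (right). Points are libraries, lines are means of 2; paused ESC lie at 0.0530% and 0.0518% for miR-669, below both control ESC libraries and all 4 TSC libraries.

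The mean share was 19.9 times as high in control as in paused ESC (1.04% ± 0.00907 against 0.0524% ± 0.000838, SD, n = 2). In TSC it was 2.03% ± 0.0250 in control and 1.90% ± 0.225 in paused cells, a ratio of 1.07, with overlapping libraries. Control TSC had 1.94 times the share of control ESC, and paused TSC had 36.3 times that of paused ESC. These sums over a group chosen with results known are a description and carry no test.

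On pausing of ESC all 8 miR-669 entries that could be tested were lower. They included miR-669f-3p, the most counted member, from the start of the array, and miR-669c-5p, from its end. Both the 5p and the 3p entries of Mir669f and of Mir669l fell. The entry miR-669i had 0 counts in all 4 ESC libraries and gave no fold. Over all 206 tested miRNAs 27.7% were called, 19.4% lower (edgeR quasi-likelihood test, two-sided, Benjamini-Hochberg adjusted p under 0.05) and 8.25% higher.

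The best counted member, miR-669f-3p, stood at 3783 and 4346 CPM in control ESC and at 187 and 248 CPM in paused ESC. The groups did not overlap, and the gap between them was far wider than that between replicates. Its log2 fold change was −4.22 ± 0.42 (SE; edgeR adjusted p = 5.08e-20). miR-669c-5p had 1231 and 1278 CPM in control and 87.3 and 15.5 CPM in paused ESC. The paused libraries hold 8 counts of it in all, and differ from each other more than the control libraries do. It fell by 4.45 on the log2 scale (SE 0.56, edgeR adjusted p = 1.47e-13). The call held with either paused library left out, but the size did not, at −6.11 without paused ESC replicate 1 and −3.58 without replicate 2.

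miR-669b-3p was the steadiest member between replicates in ESC. It had 1094 and 1086 CPM in control and 87.3 and 92.8 CPM in paused cells, and fell by 3.56 on the log2 scale (SE 0.54, edgeR adjusted p = 1.45e-09), the smallest fitted decrease of the 8. miR-669a-3-3p, the 3p arm of 1 of the 12 copies of letter a, had 1003 and 639 CPM in control and 24.9 and 92.8 CPM in paused ESC. Its replicates differed in both groups and the groups did not overlap (−3.83 ± 0.60 SE, edgeR adjusted p = 5.06e-09). Its value was −3.16 and −4.70 without paused ESC replicate 1 and 2, and −3.12 without control ESC replicate 1. miR-669l-5p stood at 866 and 447 CPM in control and at 49.9 and 30.9 CPM in paused ESC, and fell by 3.94 (SE 0.64, edgeR adjusted p = 1.53e-08), or by 3.00 without control ESC replicate 1.

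The other 3 called members had 0 or 1 count in paused ESC, so that the fitted fold depends on the prior count. miR-669e-5p had 9 counts in control and 1 in paused ESC, a ratio of 34.7 (95% counting interval 4.81 to 1520). miR-669f-5p had 7 counts in control and 0 in paused ESC, 8.99-fold lower with paused ESC set to a floor of 3 counts over the group. miR-669l-3p had 9 and 0, 11.6-fold lower on the same floor. These floor ratios take the control count as exact, so the true decrease could be smaller. Leaving out control ESC replicate 2 ended the call of miR-669l-3p (edgeR adjusted p = 0.0679), and none of the other 7 calls was lost in any fit tried. The median log2 fold change of the 8 was −4.33, or −3.89 with the pair at 0 counts set to that floor, beside −0.0285 over all tested miRNAs. Without paused ESC replicate 1 the fitted median was −5.16.

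The place of most of these entries among the tested ones did not rest on ESC. Of the 9 tested entries, 8 reached the filter in 2 TSC libraries. These are not among the groups compared in ESC pausing, though they share in its scaling and its estimate of the spread. The exception was miR-669l-3p, which reached it in 1 control ESC and 1 control TSC library. The paused ESC libraries were deeper than the control ones (73574 and 61749 counts, against 19266 and 13607). In bulk samples, fewer cells of a type and less miRNA per cell cannot be told apart.

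Other miRNA groups moved with pausing in the same ESC libraries. The miR-302 cluster of the early embryo (8 entries of miR-302a, miR-302b, miR-302d and miR-367) held 0.270% and 0.478% of counts in control ESC and 0.00951% and 0.00648% in paused ESC, 117 against 11 counts. The miR-290 cluster held 64.5% and 62.0% in control and 65.2% and 65.0% in paused ESC. Blood-linked entries (miR-142a, miR-150, miR-223 and miR-451a, 4 of 7 with a count) summed to 0.893% to 1.11% in control and 0.486% to 0.571% in paused ESC, a sum whose members went opposite ways. miR-142a held 0.612% and 0.948% in control and 0.0503% and 0.0308% in paused ESC, while miR-150 held 0.280% and 0.162% in control and 0.521% and 0.455% in paused ESC. Both arms of miR-223 and miR-451a were at 0.

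The 10 trophoblast entries summed to 0.0986% and 0.154% in control and 0.146% and 0.158% in paused ESC. Among them miR-322, miR-503 and miR-351 held 0.0779% and 0.118% in control and 0.0734% and 0.0858% in paused ESC, with overlapping groups. miR-542 and miR-450b held 0.0208% and 0.0367% in control and 0.0843% and 0.0599% in paused ESC, which did not overlap. The part of any of these groups in the miR-669 result was not tested.

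**Figure D3:**
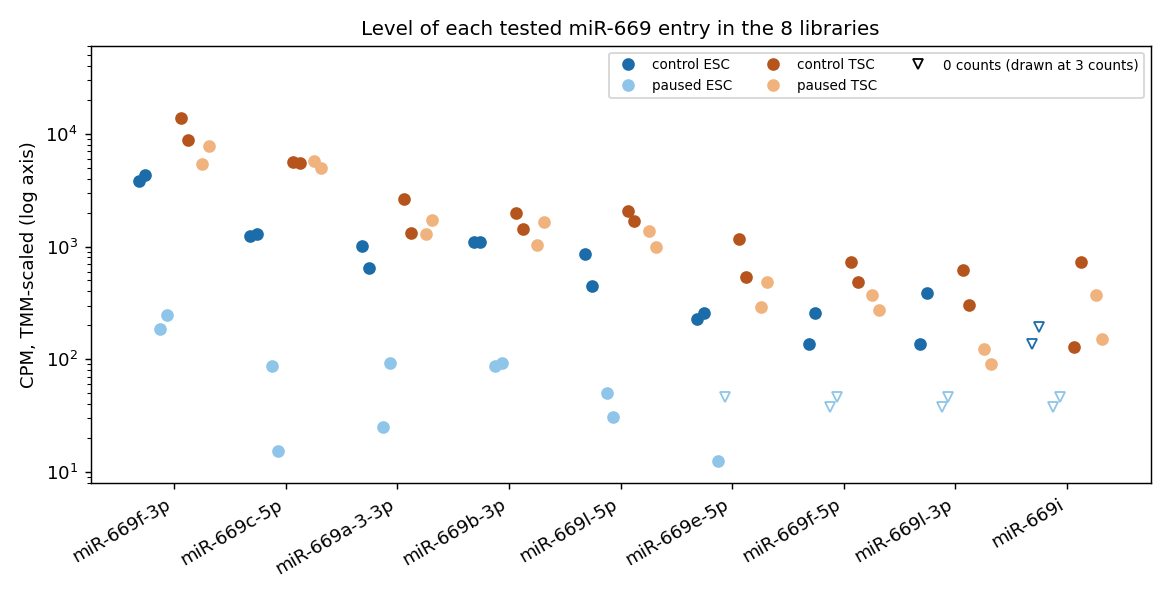
TMM-scaled CPM (log axis) of the 9 tested miR-669 entries in each of the 8 libraries, with open triangles for 0 counts, drawn at the value of 3 counts. Paused ESC lie below control ESC for every entry with ESC counts. The share of all tested miRNAs whose ESC groups separate was not counted. At this scaling the TSC groups overlap for miR-669c-5p, miR-669a-3-3p, miR-669b-3p and miR-669i. Control lies above paused TSC for the rest, but as shares of all counts miR-669f-3p, miR-669l-5p and miR-669e-5p overlap too.

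In TSC most miR-669 entries did not pass the test for a change on pausing. Of 9 tested entries 2 were called lower and 0 higher, beside 18.9% of all tested miRNAs called, 17% lower and 1.94% higher. At an unadjusted p under 0.05 the edgeR fit had 3 lower and 0 higher, and DESeq2 had 0 in either direction. The calls were miR-669l-3p (−2.30 ± 0.74 SE, edgeR adjusted p = 0.0192) and miR-669e-5p (−1.26 ± 0.45 SE, edgeR adjusted p = 0.0328). miR-669l-3p had 624 and 301 CPM in control and 124 and 90.7 CPM in paused TSC, with 6 counts in the paused pair. miR-669e-5p had 1159 and 542 CPM in control and 289 and 484 CPM in paused TSC. Neither call was kept in any of the 12 alternative fits that gave them an adjusted p (0.0726 to 0.749 for miR-669l-3p, 0.131 to 0.959 for miR-669e-5p); DESeq2 gave them none. Without control TSC replicate 1 the values were −1.24 for miR-669l-3p and −0.20 for miR-669e-5p.

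The 2 most counted members were among those not called. miR-669f-3p had 13707 and 8728 CPM in control and 5415 and 7711 CPM in paused TSC, groups that do not overlap but whose replicates differ widely (−0.78, 95% interval −1.43 to −0.13, edgeR adjusted p = 0.0877). miR-669c-5p had 5631 and 5538 CPM in control and 5745 and 4959 CPM in paused TSC, with overlapping groups (−0.06, 95% interval −0.74 to 0.61, edgeR adjusted p = 0.933). miR-669a-3-3p (−0.47), miR-669b-3p (−0.37), miR-669l-5p (−0.70), miR-669f-5p (−1.04) and miR-669i (−0.17) were not called either. Groups overlapped for miR-669a-3-3p, miR-669b-3p and miR-669i, and did not for miR-669l-5p (2051 and 1685 against 1364 and 998 CPM) and miR-669f-5p (726 and 482 against 372 and 272 CPM).

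The TSC values moved with the scaling. The median over all tested miRNAs was −0.39 with TMM and 0.08 with the total count alone, and the median of the 9 entries was −0.70 and −0.22. With the total count alone miR-669c-5p, miR-669a-3-3p, miR-669b-3p and miR-669i had positive, uncalled fold changes. The deep control TSC library took a TMM factor of 0.68, against 0.887 in its replicate. As shares of all counts, the control and paused TSC groups of miR-669f-3p, miR-669l-5p and miR-669e-5p overlapped, unlike their CPM. How often such groups separate over all tested miRNAs was not counted.

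**Figure D4:**
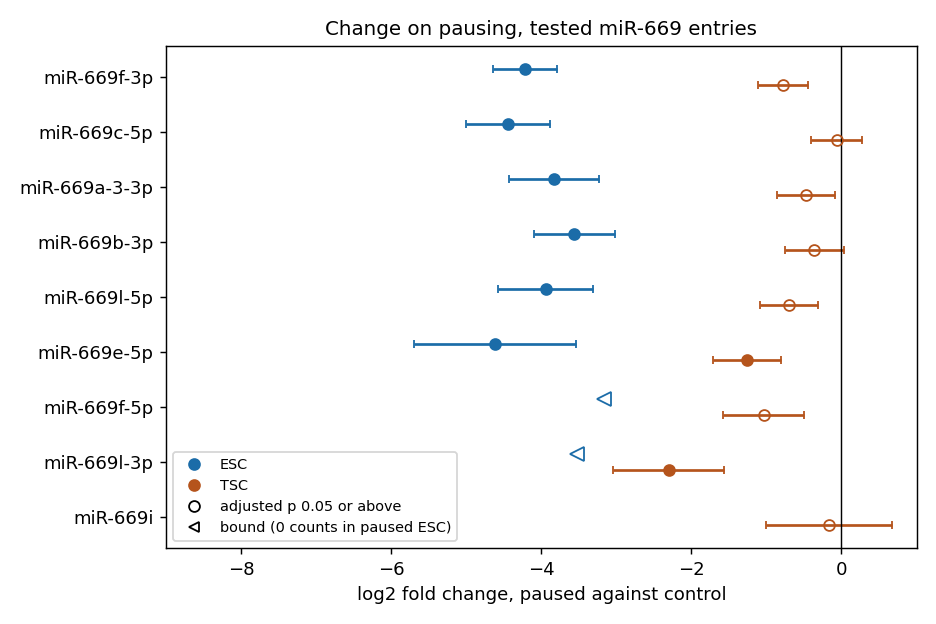
Log2 fold change of paused against control cells (TMM scaling) for the tested miR-669 entries in ESC (blue) and TSC (brown), with SE bars. Filled points have an edgeR adjusted p under 0.05. Open triangles, called bounds, set entries with 0 counts in paused ESC to 3 counts and take the control count as exact. The ESC values lie at −3.56 or below except for the bounds, and the TSC values at −2.30 or above; with the total count alone 4 uncalled TSC values are positive.

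The difference between these responses was tested as an interaction of pausing and cell type. All 8 testable entries had a larger fitted decrease in ESC than in TSC, and 7 of these differences were called. Over all tested miRNAs 26.2% were called, 11.7% in that direction and 14.6% in the other. The differences ran from −3.19 (miR-669b-3p, edgeR adjusted p = 3.91e-05) to −4.96 (miR-669f-5p, with 0 counts in paused ESC). For miR-669f-3p the difference was −3.43 ± 0.53 (SE, edgeR adjusted p = 8.83e-09), and for miR-669c-5p it was −4.38 ± 0.66 (edgeR adjusted p = 3.55e-09), or −6.41 without paused ESC replicate 1. miR-669l-3p, lower in both cell types, had a difference of −4.06 that was not called (edgeR adjusted p = 0.0773; 0.0489 with the total count alone).

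In control cells most miR-669 entries were lower in ESC than in TSC. Of 9 tested entries 7 were called lower in control ESC and 0 higher, beside 74.3% of all tested miRNAs called, 40.8% lower and 33.5% higher. Among the 7, miR-669e-5p, miR-669f-5p and miR-669i reached the filter through TSC libraries alone. The count is therefore not independent of a high level in TSC. miR-669c-5p showed the clearest gap, with 1231 and 1278 CPM in ESC against 5631 and 5538 CPM in TSC (−2.15 ± 0.39 SE, edgeR adjusted p = 2.16e-07). miR-669f-3p had a log2 difference of −1.48 ± 0.35 (SE, edgeR adjusted p = 5.17e-05), or −0.86 without control TSC replicate 1. miR-669b-3p, at 1094 and 1086 CPM in ESC and 1975 and 1445 CPM in TSC, was not called (−0.69, 95% interval −1.52 to 0.14, edgeR adjusted p = 0.129), nor was miR-669l-3p (−1.12, edgeR adjusted p = 0.135).

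Among the 7 calls, those of miR-669c-5p and miR-669f-3p held in each of the fits tried. The calls numbered 3 by DESeq2, 4 with the total count alone, 4 without control ESC replicate 1 and 3 without control ESC replicate 2. The median of the 9 entries was −1.48 with TMM and −0.89 with the total count alone, and that of all tested miRNAs was −0.23 and 0.40. The entries miR-669e-5p, miR-669f-5p, miR-669l-3p and miR-669i did not reach the filter in 2 ESC libraries, so their place among the tested entries was not independent of a high level in TSC. For the other 5, which reached it in both control ESC libraries, 4 were called lower.

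In the paused state the 5 entries that had reached the filter in both control ESC libraries were called lower in ESC than in TSC, beside 76.7% of all tested miRNAs called, 39.3% lower and 37.4% higher. The other 4 tested entries were called lower too, but miR-669e-5p, miR-669f-5p and miR-669i had reached the filter through TSC libraries alone, so a count over all 9 is not independent of a high level in TSC. miR-669c-5p had the largest fitted difference among entries with counts in both groups, 87.3 and 15.5 CPM against 5745 and 4959 CPM (−6.54 ± 0.51 SE, edgeR adjusted p = 1.54e-33), and miR-669b-3p the smallest (−3.88 ± 0.50 SE). Without paused ESC replicate 1 or 2 the value of miR-669c-5p was −8.20 or −5.70, and without paused TSC replicate 2 that of miR-669b-3p was −3.28. miR-669i, at the far end of the array, had 14 counts in paused TSC and 0 in paused ESC, 11.8-fold lower with paused ESC set to a floor of 3 counts. In control ESC it had 0 counts, set against 22 in control TSC, 2.90-fold lower on the same floor. miR-669h-3p had 20 counts in control TSC and 0 in control ESC, 2.63-fold lower on that floor. The TSC counts are taken as exact in these ratios, so the true differences could be smaller.

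The sparsely counted members, which were not tested, are given by their pooled counts. miR-669o-5p had 5 and 3 counts in control and paused ESC, and 54 and 15 in control and paused TSC. miR-669c-3p had 6, 1, 26 and 15 counts in the same order, and miR-669e-3p had 3, 0, 16 and 7. miR-669h-5p had 4, 0, 14 and 5 counts, and miR-669k-3p had 1, 0, 6 and 5. Paused ESC had the lowest pooled count of each, although it holds more counts than control ESC or paused TSC. The ratio of control to paused ESC was 6.42 for miR-669o-5p (95% counting interval 1.25 to 41.4) and 23.1 for miR-669c-3p (2.80 to 1063).

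Shares within the miR-669 counts do not depend on how libraries are scaled. miR-669f-3p was the largest part in 7 of 8 libraries, at 38.5% or more, and held 31.8% in the first paused TSC library, where miR-669c-5p led with 33.7%. miR-669c-5p took 13.5% and 14.0% in the control ESC libraries. In TSC it took 18.7% and 24.5% before pausing and 33.7% and 26.1% after. These groups did not overlap. In paused ESC it took 17.9% and 3.13% of 39 and 32 counts, too few to place it. The count of miR-669c-5p per count of miR-669f-3p was 0.325 and 0.294 in control ESC. In TSC it was 0.411 and 0.634 without pausing and 1.06 and 0.643 with it.

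miR-669b-3p had the opposite order. It made up 12.0% and 11.9% of miR-669 counts in control ESC and 17.9% and 18.8% in paused ESC. In TSC it made up 6.57% and 6.38% without pausing, and 6.07% and 8.76% with it. Every ESC library lay above every TSC library. The hairpins at the far end of the array (c, o, i and h, a set chosen after their values were seen) held 18.5% and 18.2% of miR-669 counts in control ESC. Their part in TSC was 22.9% and 35.4% for control and 40.3% and 31.1% for paused libraries. In paused ESC it was 25.6% and 6.25%, of 39 and 32 counts, so the ESC and TSC libraries overlapped. With 2 libraries a group, an exact permutation test of any such share cannot go below p = 0.33, so none was run.

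**Figure D5:**
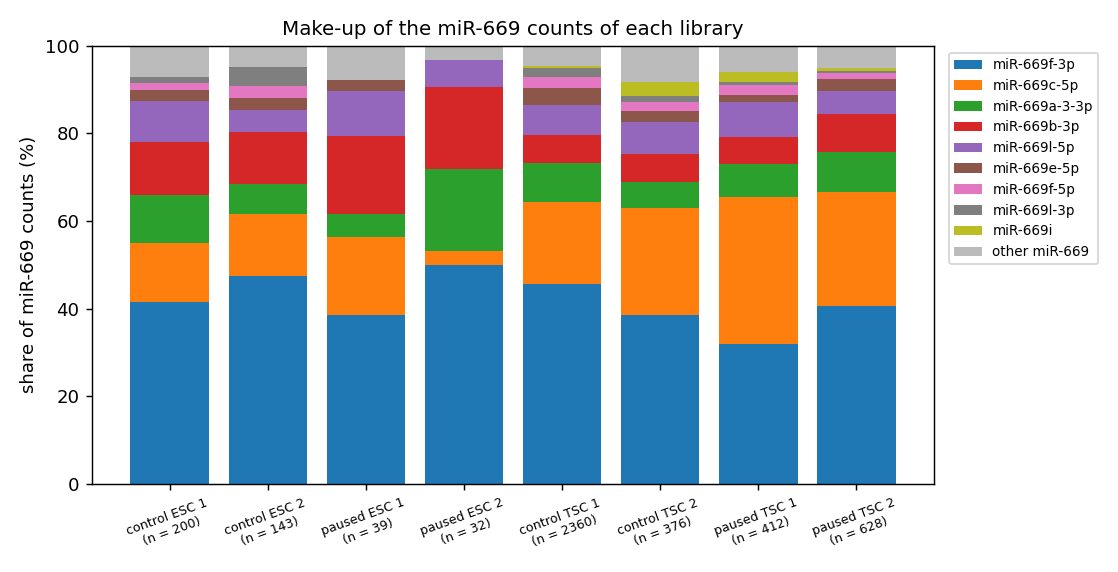
Share (%) of each library's miR-669 counts on the 9 tested entries and on all other miR-669 entries, with the number of miR-669 counts under each bar. miR-669c-5p is a wider band in the TSC libraries (18.7% to 33.7%) than in control ESC (13.5% and 14.0%), and miR-669b-3p is wider in ESC.

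The arm that held most counts differed between hairpins. How reads that match several loci were placed is not known, so these are shares of counts and need not be shares of the arms kept. Over all libraries Mir669f gave 4.79% of its 1879 counts from the 5p arm (95% Clopper-Pearson interval 3.87% to 5.85%), so its counts were almost wholly on the 3p entry. Mir669c gave 94.9% from the 5p arm (93.3% to 96.2% of 940 counts), as did Mir669o with 92.8%, Mir669e with 83.6% and Mir669l with 80.6%. Mir669h, with 50 counts, was split near the middle (46.0% 5p, 31.8% to 60.7%).

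By group, the 5p share of Mir669f was 4.43% in control ESC. In TSC it was 5.05% for control and 4.46% for paused cells, all with intervals that overlap. That of Mir669c was 88.7% in control ESC (77.0% to 95.7%) and 95.4% and 95.3% in control and paused TSC. Mir669l had 77.8% in control TSC (72.0% to 82.8% of 243 counts) and 91.7% in paused TSC (82.7% to 96.9% of 72), intervals that overlap at their ends, and 74.3% in control ESC.

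The related miR-297, miR-466 and miR-467 entries, taken by name, were measured in the same libraries. Of their 51 hairpins 42 lay in the Sfmbt2 intron, so this set may hold products of other loci. The 50 entries of miR-297, miR-466 and miR-467 held 1.53% ± 0.305 of control ESC counts and 0.131% ± 0.00889 of paused ESC counts (SD, n = 2). In TSC they held 1.97% ± 0.0460 without and 2.04% ± 0.0146 with pausing. Their control share was 11.7 times the paused share in ESC, where the miR-669 ratio was 19.9. Of 11 tested entries of this set 10 were called lower in paused ESC and 0 higher, beside 19.4% of all tested miRNAs lower and 8.25% higher. The median log2 fold change of the 11 was −3.60 (−3.20 with groups at 0 counts set to the floor of 3 counts). In TSC 1 of 11 was called lower, beside 17% of all tested miRNAs. The most counted, miR-467e-5p, fell by 2.18 on the log2 scale in paused ESC (SE 0.44, edgeR adjusted p = 7.86e-06). The next, miR-466f-3p, fell by 4.04.

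Within the whole Sfmbt2 set, miR-669 entries held 44.1% and 37.5% of control ESC counts and 27.9% and 29.4% of paused ESC counts. In TSC they held 50.5% and 50.9% without pausing and 46.2% and 50.1% with it. The miR-669 part was therefore lowest in both paused ESC libraries, and the TSC libraries lay above all ESC libraries. The difference between miR-669 and the miR-297, miR-466 and miR-467 entries was not tested.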

How the data were processed

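The authors deposited raw counts, 1 whole number per mature miRNA entry for 1978 entries and 12 samples. Per the submitters' processing notes, the build was GRCm38. For trimming, aligner, counter and miRNA release, the tools were not given in the sources used here. Per the labels' protocols, 10 ng of RNA was amplified for 12 cycles with the SMARTer smRNA-seq kit and read as single ends of 75 bp.

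Files identical within a group were counted as 1 library. The counts were fitted with edgeR 4.0.16 in R 4.3.3: TMM scaling, filterByExpr (206 miRNAs kept, at least 98.1% of each library's counts), 1 quasi-likelihood model with a mean per group, a common dispersion of 0.0456 and 4 residual degrees of freedom. The prior degrees of freedom were infinite, so p-values rest on a spread pooled over miRNAs. A Benjamini-Hochberg adjusted p under 0.05 over the 206 was a call. Tests were checked on simulated data. CPM is the count scaled by the TMM-adjusted library total. Means have their SD over 2 libraries.

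Entries with 10 or more counts in all are described singly. Beside them, the 2 most counted entries of the miR-297, miR-466 and miR-467 groups are named. Ratios of pooled counts have exact conditional 95% intervals. The members, lists and tests were chosen with earlier results of these data known. Alternatives were DESeq2 1.42.0, median-of-ratios scaling, the total count alone, a replicate block, no filter, and leaving out single libraries.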

Additional observations from a re-analysis of the deposited data

Results flagged for a closer look

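The response to pausing differed between the cell types for 7 miR-669 entries, by the interaction term of the edgeR fit. The log2 differences, ESC minus TSC, were −3.36 for miR-669a-3-3p, −3.19 for miR-669b-3p, −4.38 for miR-669c-5p, −3.36 for miR-669e-5p, −3.43 for miR-669f-3p, −4.96 for miR-669f-5p and −3.24 for miR-669l-5p. Those of miR-669e-5p and miR-669f-5p rest on 1 and 0 counts in paused ESC, and their calls were lost in 5 and 4 of the 12 alternative fits that gave them an adjusted p. That of miR-669l-5p was lost without control ESC replicate 1 (edgeR adjusted p = 0.0595). Leaving out paused ESC replicate 1 gave −6.41 for miR-669c-5p, −5.50 for miR-669e-5p and −4.04 for miR-669l-5p, and leaving out paused ESC replicate 2 gave −4.65 for miR-669a-3-3p.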

How the results depend on the processing

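Over 552 alternative values of single entries, 460 kept direction and call, 67 lost the call, 1 gained it (miR-669l-3p, difference of pause effects, total count alone) and 24 changed sign, all of these uncalled values of TSC pausing. In ESC pausing the calls were 8 of 12 entries by DESeq2, 8 of 8 under every other scaling and 10 of 15 with no filter. With a library left out the median log2 fold change, over the 9 or 10 entries then tested, ran from −3.99 to −5.16. In TSC pausing 0 were called by DESeq2 (0 at an unadjusted p under 0.05), with median-of-ratios scaling (2 at that p), with the total count alone (1), with no filter (1), and 0 to 0 with a library left out (0 to 2). Control ESC against control TSC gave 3 of 14 by DESeq2 and 4 of 9 with the total count alone. With a library left out its median, over 11 or 12 entries, ran from −0.92 to −1.63. Paused ESC against paused TSC gave 15 of 17 entries with no filter, and the difference of pause effects 7 of 15. With a library left out the median of that difference, over 9 or 10 entries, ran from −3.37 to −4.28, beside −3.40 in the main fit. Shares called over all miRNAs were not counted in the alternative fits. A left-out library leaves its group with 1, assumed to vary like the others, and lowers the number of libraries the filter asks for. The causes of these shifts were not tested.

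The signs that changed, as log2 fold changes of paused against control TSC, were these. miR-669c-5p (−0.06) had 0.16 by DESeq2, 0.16 with median-of-ratios scaling, 0.38 with the total count alone and 0.24 with no filter. It had 0.23 without control ESC replicate 1, 0.23 without replicate 2, 0.30 and 0.32 without paused ESC replicates 1 and 2, and 0.20 to 0.39 without a TSC library (0.28 for each paused one). miR-669a-3-3p (−0.47) had 0.0437 with the total count alone, and −0.39 to 0.44 with a library left out, among them 0.44 without control TSC replicate 1 and 0.21 without paused TSC replicate 1. miR-669b-3p (−0.37) had 0.13 with the total count alone, and −0.47 to 0.40 with a library left out, among them 0.03 and 0.05 without paused ESC replicates 1 and 2, 0.17 without control TSC replicate 1 and 0.40 without paused TSC replicate 1. miR-669i (−0.17) had 0.0350 with median-of-ratios scaling, 0.26 with the total count alone, and −1.27 to 1.42 with a library left out, among them 1.42 without control TSC replicate 2 and 0.32 without paused TSC replicate 2.

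The summed share depends on its denominator and members. With the miR-290 cluster left out of the total it was 2.86% and 0.151% in control and paused ESC, and 4.24% and 4.59% in control and paused TSC. Without miR-669f-3p the values, in that order, were 0.579%, 0.0293%, 1.17% and 1.21%, and over tested entries alone 0.982%, 0.0496% and 1.90% in the first 3 groups.

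The labels do not say that replicate numbers pair samples. Same-numbered libraries had correlated deviations of −0.0715 in ESC and −0.183 in TSC over 206 miRNAs. With the replicate number as a block within cell type, 0 entries were called in TSC pausing (2 at an unadjusted p under 0.05), and the other counts of calls did not change.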
